A study of Mus musculus with 12 samples.

Results

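The interferon regulatory factors are a family of transcription factors, and 7 of their genes (Irf1, Irf2, Irf4, Irf5, Irf7, Irf8 and Irf9) were followed here in mouse macrophages given a STING agonist, a STING inhibitor or both. The genes were chosen by name as members of the family, with earlier results of these data known, out of 24062 gene entries. All 7 were among the 11440 genes that passed the filter on low values. Irf3, whose change with CMA was not called, is not among the 7 and is described with the related genes. The cells were primary macrophages grown from C57Bl/6 bone marrow, at passage 1, and their mRNA was sequenced in 4 groups of 3 libraries. The groups were macrophages given the STING inhibitor C-178 together with the STING agonist CMA, macrophages given CMA alone, macrophages given C-178 alone, and unstimulated macrophages; the treatments lasted 2 h. C-178 binds STING covalently, and CMA activates the mouse protein. No genotype other than wild type is given, and the labels do not say whether the libraries of a group came from separate mice or cultures, so p-values measure the spread between these libraries, which may be technical. The labelled extraction text speaks of embryonic fibroblasts, whereas the cell type label and the markers described at the end are those of macrophages.

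STING is the adaptor that receives the second messenger made by cGAS on cytosolic DNA, and it brings the kinase TBK1 to IRF3, which then enters the nucleus and switches on interferon-β. Secreted interferon binds its receptor and assembles ISGF3, a complex that holds STAT2 and IRF9 and that raises the antiviral genes, Irf7 among them. IRF1 and IRF2 bind the same DNA element, IRF1 mostly as an activator and IRF2 often as its antagonist, while IRF4, IRF5 and IRF8 act in the differentiation and cytokine output of lymphoid and myeloid cells.

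Values are normalised counts, which are reads per gene divided by a size factor for each library. The libraries held between 7.05 and 36.44 M reads, and every CMA library (7.13 to 7.83 M) was shallower than every unstimulated library (13.91 to 17.45 M). Each of the members other than Irf4 had between 501 and 48383 reads in a library. Changes are differences of log2(value + 1) with their standard error, from limma over all 12 libraries, and a gene was called at an adjusted p (Benjamini-Hochberg over the 11440 genes tested) under 0.05. Folds are ratios of group means. The libraries of bulk cells cannot tell fewer cells of a type from less RNA per cell.

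**Figure D1:**
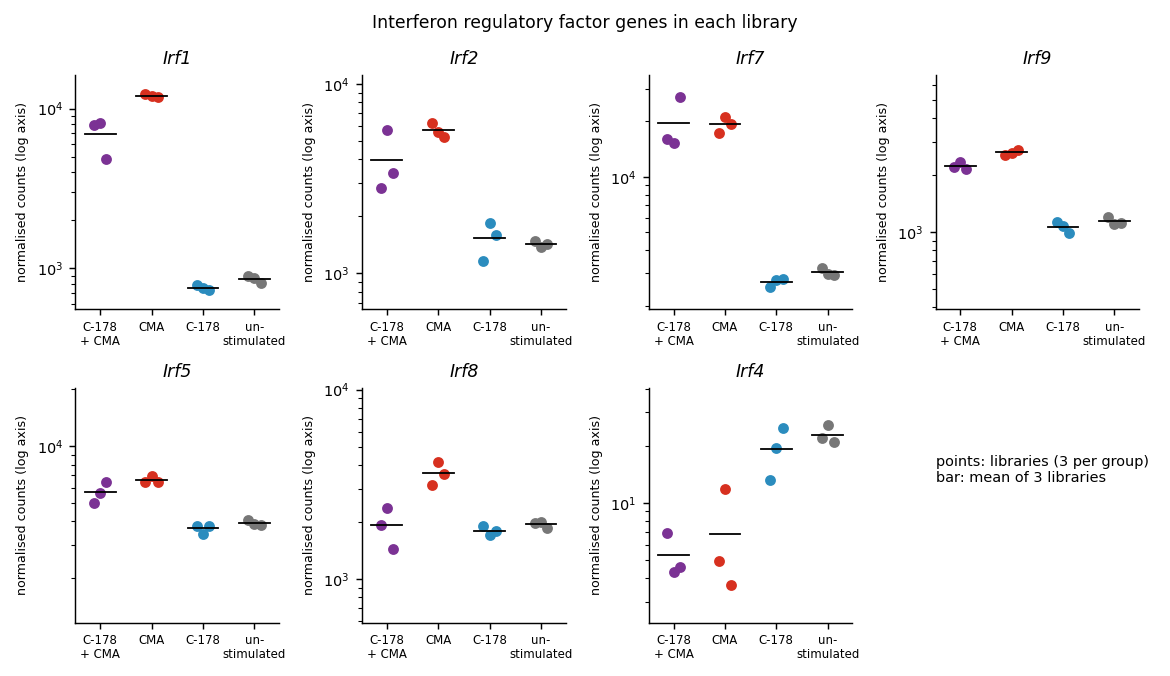
Normalised counts (log axes) of each interferon regulatory factor gene in the 3 libraries of each group, with points for libraries and a bar for the group mean. Irf1, Irf2, Irf5, Irf7 and Irf9 stood higher in all CMA than in all unstimulated libraries, as did Irf8, and Irf4 stood lower; in the C-178 plus CMA libraries Irf8 lay at 1444 to 2372.

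CMA alone changed all 7 genes within 2 h: 6 rose and Irf4 fell. Among all tested genes 37.3% were called in this comparison, 19.4% higher and 17.9% lower. The median change of the 7 genes was 1.21 on the log2 scale, beside -0.01 over all tested genes. In all 7 the CMA libraries did not overlap the unstimulated libraries, which held for 61.8% of tested genes.

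Irf1, the activator of the antagonist pair, changed most. It had 12391, 12004 and 11742 normalised counts in CMA macrophages, against 889.5, 866.4 and 804.8 in unstimulated macrophages. The means were 12046 ± 326.6 with CMA and 853.6 ± 43.8 without stimulation (SD, n = 3 each), a 14.1-fold rise and a log2 change of 3.82 ± 0.16 (limma, adjusted p = 7.44e-10). Its partner Irf2 reached 6223, 5613 and 5283 in CMA macrophages, against 1486, 1374 and 1426 in unstimulated macrophages. Irf2 thus rose 3.99-fold, by 1.99 ± 0.22 on the log2 scale (limma, adjusted p = 7.26e-06), and the spread within each group was small beside the gap between them.

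Both genes have promoter windows with a match to a motif that is bound by interferon-activated or inflammatory factors, and they are shown so that the matches can be seen with the values. Windows run from 250 bases before to 50 bases after the annotated start (RefSeq, GRCm38.p6, the assembly of mm10), and were searched on both strands for 3 motifs. The interferon-stimulated response element type is GAAA and GAAA with any 2 bases between them, the GAS type (bound by STAT factors) is TTC and GAA with any 3 bases between them, and the kappaB type is GGG and TTTCC with any 2 bases between them. Of 32851 promoter windows, 3.44% held the interferon-stimulated type, 8.3% the GAS type and 1.63% the kappaB type. The window of Irf1 at chr11:53769764-53770063 (plus strand) holds a GAS-type match whose first base lies at -90, counted from the start. The window of Irf2 at chr8:46739495-46739794 (plus strand) holds all 3 motifs, with first bases at -241, -224 and -17. Capitals mark the matches.
Irf1 promoter: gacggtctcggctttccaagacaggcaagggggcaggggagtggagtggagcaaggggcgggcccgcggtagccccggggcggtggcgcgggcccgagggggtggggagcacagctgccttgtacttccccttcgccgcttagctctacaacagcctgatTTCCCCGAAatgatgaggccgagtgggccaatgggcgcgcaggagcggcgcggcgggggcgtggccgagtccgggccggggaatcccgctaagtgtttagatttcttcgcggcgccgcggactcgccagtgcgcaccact
Irf2 promoter: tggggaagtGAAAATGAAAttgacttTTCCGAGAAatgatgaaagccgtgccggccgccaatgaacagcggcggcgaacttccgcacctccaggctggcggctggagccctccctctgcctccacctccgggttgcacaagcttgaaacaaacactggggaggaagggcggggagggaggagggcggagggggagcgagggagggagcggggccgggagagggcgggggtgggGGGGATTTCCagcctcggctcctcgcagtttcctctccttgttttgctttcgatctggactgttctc
The matches are letters in a window and show no binding. The transcribed genes lie at chr11:53770014-53778374 for Irf1 and chr8:46739732-46847458 for Irf2, both on the plus strand.

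Irf7, the factor that widens interferon-α production, and Irf9, the DNA-binding subunit of ISGF3, both rose. Irf7 (chr7:141262706-141266481, minus strand) had 17229.9, 21039.6 and 19309 normalised counts in CMA macrophages, against 3219, 2989 and 2938 in unstimulated macrophages. The rise was 6.3-fold, or 2.65 ± 0.18 on the log2 scale (limma, adjusted p = 7.23e-08). Irf9 (chr14:55603571-55610030, plus strand) had 2571, 2633 and 2704 in CMA macrophages, against 1199, 1107 and 1118 in unstimulated macrophages. It rose 2.31-fold, by 1.21 ± 0.10 (limma, adjusted p = 5.05e-07), with the tightest spread of the family in CMA macrophages (coefficient of variation 2.52%). None of the 3 motifs had a match in the promoter windows of Irf7 and Irf9, which says only that these letters are not there. The Irf9 windows (chr14:55603735-55604034 and chr14:55604329-55604628) lie within the span of the gene given above. The bases before the start of that span were not searched.

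Irf5, which drives pro-inflammatory cytokine genes, and Irf8, which is needed for monocyte and dendritic cell development, rose less. Irf5 (chr6:29526625-29541871, plus strand) had 6446, 6928 and 6505 normalised counts in CMA macrophages, against 4070.2, 3885 and 3833 in unstimulated macrophages, a 1.69-fold rise of 0.75 ± 0.12 (limma, adjusted p = 0.000138). With quantile normalisation, which moved the median change of all genes to -0.115, the Irf5 change was 0.26 and was not called (limma, adjusted p = 0.114). Irf8 (chr8:120736358-120756694, plus strand) had 3135, 4163 and 3574 in CMA macrophages, against 1964, 1999 and 1867 in unstimulated macrophages. It rose 1.86-fold, by 0.89 ± 0.16 (limma, adjusted p = 0.000583), with the second CMA library above the other two; with quantile normalisation the change was 0.51 (limma, adjusted p = 0.0104). The promoter window of Irf8 at chr8:120736108-120736407 (plus strand) is shown because it holds 2 GAS-type matches, with first bases at -171 and -153.
Irf8 promoter: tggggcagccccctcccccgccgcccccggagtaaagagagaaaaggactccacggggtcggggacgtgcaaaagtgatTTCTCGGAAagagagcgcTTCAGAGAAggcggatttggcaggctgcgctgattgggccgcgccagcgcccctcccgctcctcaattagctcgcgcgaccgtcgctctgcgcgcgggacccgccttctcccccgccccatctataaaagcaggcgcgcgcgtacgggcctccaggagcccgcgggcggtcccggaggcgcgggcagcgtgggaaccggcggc
No match was found in the windows of Irf4 and Irf5, nor in the second annotated windows of Irf1, Irf8 and Irf9.

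Irf4, a factor of plasma cells and of interleukin-4 activated macrophages, stood near the floor of detection and was the only member to fall. At chr13:30749226-30766976 (plus strand) it had 3, 6 and 2 reads in the CMA libraries, against 29, 43 and 33 in the unstimulated libraries. In normalised counts these were 4.944, 11.84 and 3.671 in CMA macrophages, against 22.05, 25.68 and 20.88 in unstimulated macrophages. The fall was 3.36-fold, or -1.75 ± 0.40 on the log2 scale (limma, adjusted p = 0.00345), and no CMA library reached an unstimulated one. Irf4 passed the filter on low values through its unstimulated and C-178 libraries, the groups where it was high. Of the libraries given CMA, with or without C-178, only the second with CMA alone was over 10. Its fall is thus not independent of the filter, and without a filter all 7 genes were still called with CMA. The size of a log2 change at so few reads depends on the pseudocount, and with 10 in place of 1 it was -0.99 (limma, adjusted p = 0.00198). After thinning every library to as many reads as the shallowest, the change was -1.71 (limma, adjusted p = 0.00916).

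With C-178 alone limma called none of the 7 genes, beside 0.0962% of all tested genes, all of them higher. None of the 7 had an unadjusted p under 0.05, and edgeR and DESeq2 on the recovered reads also called 0. Irf1 had 785.6, 754.3 and 730.9 normalised counts in C-178 macrophages, all below the 804.8 to 889.5 of unstimulated macrophages. Irf7 had 2526, 2775 and 2804 in C-178 macrophages, all below the 2938 to 3219 of unstimulated macrophages, and Irf5 (3781, 3434 and 3808) also lay below its unstimulated libraries. These 3 of 7 genes did not overlap between the groups, which held for 15.6% of tested genes. The 95% intervals of the change ran from -0.52 to 0.18 for Irf1, from -0.57 to 0.22 for Irf7 and from -0.35 to 0.15 for Irf5. All intervals here use a spread shared by all 4 groups, so their width is not the spread of the compared groups alone. The coefficient of variation of Irf1 was 25.8% in C-178 plus CMA, 3.63% in C-178 and 5.13% in unstimulated macrophages. With only the compared groups fitted, limma also called 0 of the 7 genes. For Irf2 (1166, 1846 and 1592 in C-178 macrophages) the interval ran from -0.40 to 0.56, for Irf8 (1895, 1710.4 and 1784) from -0.46 to 0.23, and for Irf9 (1127, 1075 and 985.1) from -0.32 to 0.11. Irf4 had 37, 13 and 17 reads in C-178 macrophages, 13.27, 19.57 and 24.7 in normalised counts, and the interval from -1.14 to 0.59 is the widest of the 7. The median change was -0.11, beside -0.01 over all tested genes.

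C-178 plus CMA against CMA alone asked whether the inhibitor lowers the response to the agonist. Irf1 and Irf8 were lower in C-178 plus CMA macrophages, none was higher, and 5 were not called; 24.1% of all tested genes were called, 13.5% lower. That share rests on 2760 genes, which became 854 with only these groups fitted, 1344 without the second CMA library, 1437 without the third and 4711 without the second C-178 plus CMA library. The median change was -0.24, beside 0.004 over all tested genes. Irf1, Irf8 and Irf9 did not overlap between the groups, which held for 35.5% of tested genes. The C-178 plus CMA libraries varied more than those of any other group for Irf1, Irf2, Irf5, Irf7 and Irf8, with coefficients of variation of 12.6% to 38.8%, against 2.71% to 14.2% in CMA macrophages.

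Irf8 had 1930.0, 2372 and 1444 normalised counts in C-178 plus CMA macrophages, against 3135, 4163 and 3574 in CMA macrophages. It was 1.89-fold lower, a change of -0.94 ± 0.16 (limma, adjusted p = 0.00165), and all 24 alternative settings kept the call, at adjusted p of 4.67e-06 to 0.032. It averaged 1915 ± 464.1 in C-178 plus CMA macrophages and 1943 ± 68.1 in unstimulated macrophages (SD, n = 3 each), a pair that was not tested. Irf1 had 7861, 8065 and 4865 in C-178 plus CMA macrophages, against 12391, 12004 and 11742 in CMA macrophages. The third C-178 plus CMA library stood apart below the other two, and without it the change was -0.60 (limma, adjusted p = 0.00122). With all libraries Irf1 was 1.74-fold lower, a change of -0.83 ± 0.16 (limma, adjusted p = 0.00329), and the call was lost when only these 2 groups were fitted (limma, adjusted p = 0.0514).

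The other 5 members were not called. Irf7 had 16042, 15294 and 27124 normalised counts in C-178 plus CMA macrophages, against 17229.9, 21039.6 and 19309 in CMA macrophages. The third C-178 plus CMA library was the highest of all 12, the other two lay below every CMA library, and the change was -0.02 ± 0.18 (limma, adjusted p = 0.934; 95% interval -0.42 to 0.37). Without the third library it was -0.29 (limma, adjusted p = 0.0895). Irf2 had 2829.8, 5746 and 3395 in C-178 plus CMA macrophages, against 6223, 5613 and 5283 in CMA macrophages, so that only the second library reached the CMA range. Its change was -0.58 ± 0.22 (limma, adjusted p = 0.0711), and without that second library it was -0.88 and called (limma, adjusted p = 0.00156).

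Irf9 had 2214, 2335 and 2164 normalised counts in C-178 plus CMA macrophages, against 2571, 2633 and 2704 in CMA macrophages. All 3 libraries lay below all CMA libraries, and the change of -0.24 ± 0.10 was not called (limma, adjusted p = 0.101; 95% interval -0.46 to -0.02). Irf5 had 5032, 5645 and 6465 in C-178 plus CMA macrophages, against 6446, 6928 and 6505 in CMA macrophages, a change of -0.22 ± 0.12 (limma, adjusted p = 0.17). Without the third C-178 plus CMA library the Irf5 change was -0.31 (limma, adjusted p = 0.0495). Irf4 had 21, 3 and 3 reads in C-178 plus CMA macrophages, 6.963, 4.284 and 4.584 in normalised counts, and its interval from -1.07 to 0.67 holds a change of either sign.

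**Figure D2:**
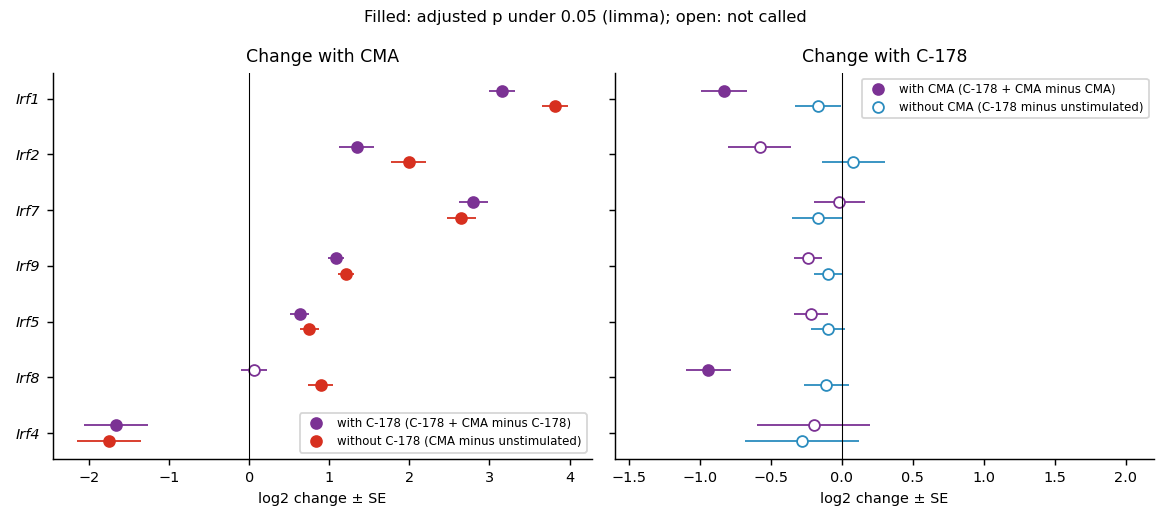
Log2 change ± SE of each interferon regulatory factor gene with CMA (left: with C-178, C-178 plus CMA minus C-178, above; without C-178, CMA minus unstimulated, below) and with C-178 (right: with CMA above, without CMA below). Filled points were called by limma at adjusted p under 0.05; Irf8 is the only gene whose change with CMA was not called in the presence of C-178, at 0.06.

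Against C-178 alone, 6 of the 7 genes were called in C-178 plus CMA macrophages. Irf1, Irf2, Irf5, Irf7 and Irf9 rose and Irf4 fell, beside 26.1% of all tested genes called, 13.5% higher and 12.6% lower. The median change was 1.08, beside 0.007 over all tested genes, and 6 of the 7 genes did not overlap between the groups, which held for 34% of tested genes. Irf1 averaged 6930.1 ± 1791 normalised counts in C-178 plus CMA macrophages and 756.9 ± 27.5 in C-178 macrophages (SD, n = 3 each), a 9.16-fold rise of 3.16 ± 0.16 (limma, adjusted p = 9.42e-09). Irf7 averaged 19487 ± 6625 in C-178 plus CMA macrophages and 2702 ± 153.0 in C-178 macrophages, 7.21-fold and 2.80 ± 0.18 (limma, adjusted p = 9.58e-08).

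The rises of Irf2 (1.34 ± 0.22, limma, adjusted p = 0.000583), Irf9 (1.08 ± 0.10, limma, adjusted p = 3.63e-06) and Irf5 (0.63 ± 0.12, limma, adjusted p = 0.00123) were smaller. With quantile normalisation the Irf5 change was 0.37 (limma, adjusted p = 0.0416). Irf4 fell by 1.67 ± 0.40 on the log2 scale (limma, adjusted p = 0.00801), and with a pseudocount of 10 the change was -0.92 (limma, adjusted p = 0.00617). Irf8 averaged 1915 ± 464.1 in C-178 plus CMA macrophages and 1796 ± 92.7 in C-178 macrophages (SD, n = 3 each). Its change of 0.06 ± 0.16 was not called (limma, adjusted p = 0.798), the libraries overlapped, and the 95% interval ran from -0.28 to 0.41.

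The 4 groups form a square, so the change with CMA in the presence of C-178 can be tested against the change with CMA in its absence. Irf8 was the only member called in this interaction, beside 9.94% of all tested genes (3.95% positive and 5.99% negative), and the median over the 7 was -0.13, beside 0.007 over all tested genes. That share rests on 1137 genes, and leaving out single libraries gave 343 (without the second CMA library) to 3699 (without the second C-178 plus CMA library), with 0 to 3 members called. CMA moved Irf8 by 0.06 with C-178 and by 0.89 without it, a difference of -0.83 ± 0.23 (limma, adjusted p = 0.0388; 95% interval -1.32 to -0.33). The difference kept its sign and lost its call in 11 of 21 alternatives, at adjusted p of 0.00325 to 0.108 over all 21. For Irf1 the difference was -0.66 ± 0.23 (limma, adjusted p = 0.0759), and for Irf2 it was -0.66 ± 0.31 (limma, adjusted p = 0.169). Both were called without the second C-178 plus CMA library, Irf1 at -0.79 (limma, adjusted p = 0.016) and Irf2 at -0.96 (limma, adjusted p = 0.00805). Irf5 (-0.12 ± 0.16), Irf7 (0.15 ± 0.26), Irf9 (-0.13 ± 0.14) and Irf4 (0.08 ± 0.57) were not called, and the last has an interval from -1.15 to 1.30.

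To order the members by level, normalised counts were divided by the length of the longest coding transcript of each gene (2137 bases for Irf1 to 4764 bases for Irf4, GENCODE M21). In CMA macrophages the order per kb was Irf7 (8579.8 ± 852.7), Irf1 (5637 ± 152.8), Irf5 (2957 ± 117.2), Irf2 (2285 ± 191.2), Irf8 (1273 ± 181.1), Irf9 (890.8 ± 22.4) and Irf4 (1.431 ± 0.923), and no neighbours overlapped (SD, n = 3). In unstimulated macrophages Irf5 led (1753 ± 55.6 per kb), ahead of Irf7 (1363 ± 66.8), Irf8 (682.5 ± 23.9), Irf2 (572.2 ± 22.5), Irf1 (399.4 ± 20.5), Irf9 (385.7 ± 16.9) and Irf4 (4.8 ± 0.525), with overlap between Irf1 and Irf9. Irf1 thus stood next to Irf9 in unstimulated macrophages and behind Irf7 alone with CMA. In C-178 plus CMA macrophages Irf7 (8711 ± 2962 per kb) led Irf1 (3243 ± 838.2), which overlapped Irf5 (2549.7 ± 320.8); Irf5 overlapped Irf2 (1598 ± 619.3), and Irf8 (672.7 ± 163.0) overlapped Irf9 (756.2 ± 29.7). C-178 alone left Irf5 (1639.8 ± 93.1 per kb) first and Irf7 (1208 ± 68.4) next, with Irf8 and Irf2 overlapping, and Irf9 and Irf1 overlapping.

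**Figure D3:**
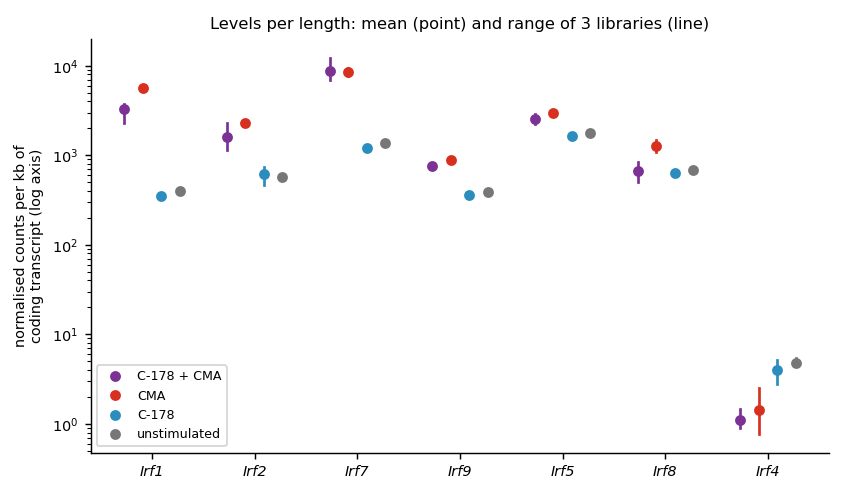
Normalised counts per kb of the longest coding transcript (log axis) of each gene, with the mean as a point and the range of 3 libraries as a line, for C-178 plus CMA, CMA, C-178 and unstimulated macrophages. Irf1 stood at 5637 per kb with CMA and 399.4 per kb unstimulated, while Irf4 stayed under 6 per kb in every library.

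The genes whose pattern was most like that of each member were taken by Pearson correlation of log2 values over the 12 libraries, which share the 4 group means and their depth. For Irf1 these were Cd69 (0.999), an early activation receptor, Gbp3 (0.998), a guanylate-binding protein, and Serpina3g (0.998), a protease inhibitor. For Irf9 they were Cxcl10 (0.997), an interferon-induced chemokine, Usb1 (0.996) and Ifit1 (0.996), an antiviral RNA-binding protein. Irf7 was nearest to Ube2l6 (0.991), an enzyme of ISG15 conjugation, Trex1 (0.990), the nuclease that degrades cytosolic DNA, and Oasl1 (0.990). Irf2 was nearest to Aim2 (0.996), a cytosolic DNA sensor, Ogfrl1 (0.995) and Pnpt1 (0.987), and Irf5 to Chmp4b, Lbh and Dtd1 (0.990 each). Irf8 was nearest to Slc14a1 (0.978), Bcl6 (0.976), a transcriptional repressor, and Wdhd1 (0.974), and Irf4 to Gpr34 (0.956), Map3k14 (0.934) and Prkab2 (0.933). Among the members, Irf1 and Irf9 were closest (0.99), Irf8 correlated at 0.50 to 0.70 with the members other than Irf4, and Irf4 was negative with all of them (-0.38 to -0.89).

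Of the rest of the family and the IRF2-binding proteins, 3 of 4 tested genes fell with CMA (median -1.22), beside 17.9% of all tested genes. Irf3, the factor that STING signalling activates by phosphorylation, had 568.6, 461.8 and 458.9 normalised counts in CMA macrophages, against 624.9, 564.9 and 539.0 in unstimulated macrophages. Its change of -0.22 ± 0.14 was not called (limma, adjusted p = 0.261), nor was it called in any other comparison. Irf2bp2, a corepressor that binds IRF2, had 204.4, 240.8 and 220.3 in CMA macrophages, against 1537, 1425 and 1322 in unstimulated macrophages, and so fell 6.45-fold while Irf2 rose. Irf2bp1 fell by 1.59 ± 0.24 and Irf2bpl by 0.85 ± 0.27 on the log2 scale (limma, adjusted p = 0.000106 and 0.0234). Irf2bp2 was 2.64-fold higher in C-178 plus CMA than in CMA macrophages (1.36 ± 0.16, limma, adjusted p = 0.000144), and Irf2bp1 was 2.28-fold higher (1.11 ± 0.24, limma, adjusted p = 0.00555).

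Of the 23 genes for the kinases, adaptors and ligases that act on these factors, 11 rose and 4 fell with CMA (median 0.39), beside 19.4% and 17.9% of all tested genes. In C-178 plus CMA against CMA macrophages 1 was higher and 8 lower (median -0.31), beside 10.6% and 13.5%. Tnfaip3, the deubiquitinase A20, rose 18.2-fold with CMA, and was 10-fold lower in C-178 plus CMA than in CMA macrophages (-3.35 ± 0.22, limma, adjusted p = 1.03e-06). Peli1, an E3 ligase, rose 11.1-fold with CMA and was 1.84-fold lower in C-178 plus CMA than in CMA macrophages. Mb21d1, which encodes the DNA sensor cGAS, rose 8.48-fold, and Trim21, a ligase for several of these factors, rose 6.53-fold with CMA; their changes between C-178 plus CMA and CMA were -0.73 ± 0.20 (limma, adjusted p = 0.0199) and -0.33 ± 0.18 (limma, adjusted p = 0.184). Of the 22 genes for DNA-binding partners and cofactors, 10 rose and 4 fell with CMA (median 0.33), and 8 were lower and none higher in C-178 plus CMA than in CMA macrophages (median -0.43), to be read beside the same shares. Batf2, which pairs with IRF1, rose 40.7-fold with CMA and was 2.77-fold lower in C-178 plus CMA than in CMA macrophages. Stat2, a partner of Irf9 in ISGF3, rose 5-fold with CMA, and its change between C-178 plus CMA and CMA was -0.38 ± 0.21 (limma, adjusted p = 0.197). Jun, an AP-1 subunit, rose 2.81-fold with CMA and was 3.69-fold lower in C-178 plus CMA than in CMA macrophages (limma, adjusted p = 3.11e-05). The counts of lower genes in C-178 plus CMA against CMA dropped to 5 of 23 and 5 of 22 without the second CMA library, and the first also to 5 without the third CMA library. The 1 kinase, adaptor or ligase gene that was higher became 3 without the second C-178 plus CMA library and 0 without the third C-178 plus CMA library, the second CMA library or the third CMA library. The 4 partner genes that fell with CMA became 7 without the third C-178 plus CMA library, which enters through the shared estimate of spread.

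Targets of ISGF3 all rose: 28 of 28 with CMA (median 3.34) and 28 of 28 in C-178 plus CMA against C-178 (median 2.56), beside 19.4% and 13.5% of all tested genes called higher. The first 2 of those named by smallest p, Oasl1 and Ifit3, rose 65.8-fold and 31-fold with CMA, and their changes between C-178 plus CMA and CMA were -0.36 ± 0.17 and -0.41 ± 0.19 (limma, adjusted p = 0.127 and 0.121). Rsad2 (viperin) and Ifit1 rose 153-fold and 80.4-fold with CMA and were 1.97-fold and 2.1-fold lower in C-178 plus CMA than in CMA macrophages. In that last comparison 15 of 28 targets were lower (8 without the second CMA library), 1 was higher and 12 were not called (median -0.76), beside 13.5% lower and 10.6% higher over all tested genes. Of 28 genes linked to IRF1, such as antigen-processing and guanylate-binding protein genes, 26 rose with CMA (median 3.29), beside 19.4% of all tested genes. In C-178 plus CMA against CMA macrophages 15 of the 28 were lower and 1 was higher (median -0.73), beside 13.5% and 10.6%. Leaving out single libraries gave 11 to 17 lower. Gbp5 and Gbp2, of the guanylate-binding proteins, rose 246-fold and 61.6-fold with CMA and were 3.64-fold and 2.44-fold lower in C-178 plus CMA than in CMA macrophages. Il15ra, the interleukin-15 receptor subunit, rose 33.4-fold with CMA, and its change between C-178 plus CMA and CMA was -0.50 ± 0.21 (limma, adjusted p = 0.0929).

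Cytokine genes linked to IRF5 rose in 9 of 10 with CMA (median 4.2), and 8 of 10 were lower in C-178 plus CMA than in CMA macrophages (median -1.95), beside 19.4% higher and 13.5% lower over all tested genes. The chemokine genes Ccl4 and Ccl3 rose 58.9-fold and 20.6-fold with CMA and were 3.28-fold and 4.55-fold lower in C-178 plus CMA than in CMA macrophages, while the Irf5 change between those groups was -0.22. Cxcl10 averaged 30809 ± 3817 normalised counts in C-178 plus CMA macrophages and 82483 ± 10399 in CMA macrophages (SD, n = 3 each), and stands in the lists of both IRF1 and IRF5. The interferon genes, which IRF3 and IRF7 switch on, were almost silent without CMA, and 3 of 19 were tested. Ifnb1 had 246 reads in the 3 C-178 plus CMA libraries, 2872 in the CMA libraries, 6 in the C-178 libraries and 0 in the unstimulated libraries. It was 29.6-fold lower in C-178 plus CMA than in CMA macrophages (-4.90 ± 0.36, limma, adjusted p = 3.73e-06). Ifna4 had 2 reads in the C-178 plus CMA libraries and 71 in the CMA libraries, Ifna2 had 5 and 48, and neither had a read in the C-178 or unstimulated libraries. Set side by side, the Irf7 change between C-178 plus CMA and CMA was -0.02 and the Ifnb1 change was -4.90; the difference between the genes was not tested.

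Of 21 myeloid genes linked to IRF8, 9 were higher and 5 lower with CMA (median 0.3), beside 19.4% and 17.9% of all tested genes. In C-178 plus CMA against CMA macrophages 3 were higher and 6 lower (median -0.18), beside 10.6% and 13.5%. Without the second CMA library 3 were lower in that comparison, and the 5 that fell with CMA became 3 without unstimulated library a, unstimulated library b or the third CMA library. Fcgr1, the high-affinity IgG receptor, rose 5.78-fold with CMA, and its change between C-178 plus CMA and CMA was -0.22 ± 0.12 (limma, adjusted p = 0.164). Pml rose 5.7-fold with CMA and Id2, a repressor of E proteins, fell 3.97-fold; in C-178 plus CMA against CMA macrophages Pml was 1.66-fold lower and Id2 1.78-fold higher. Cybb, the phagocyte oxidase subunit, rose 2.24-fold with CMA and was 1.59-fold lower in C-178 plus CMA than in CMA macrophages. Of 11 tested genes linked to IRF4, 3 rose and 2 fell with CMA (median 0.15), near the 19.4% and 17.9% of all tested genes. These counts with CMA do not set the list apart. In C-178 plus CMA against CMA macrophages 1 gene of this list was higher and 5 lower (median -0.67), beside 10.6% and 13.5%. Leaving out single libraries gave 2 to 6 lower. Socs1, the cytokine signalling inhibitor, rose 141-fold with CMA and Klf4 1.85-fold, while Il4ra, the interleukin-4 receptor, and Prdm1 fell 1.6-fold and 1.38-fold. None of the genes in these lists was called with C-178 alone. Comparisons that share a group of libraries are not independent of each other, and each is given by its own values.

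**Figure D4:**
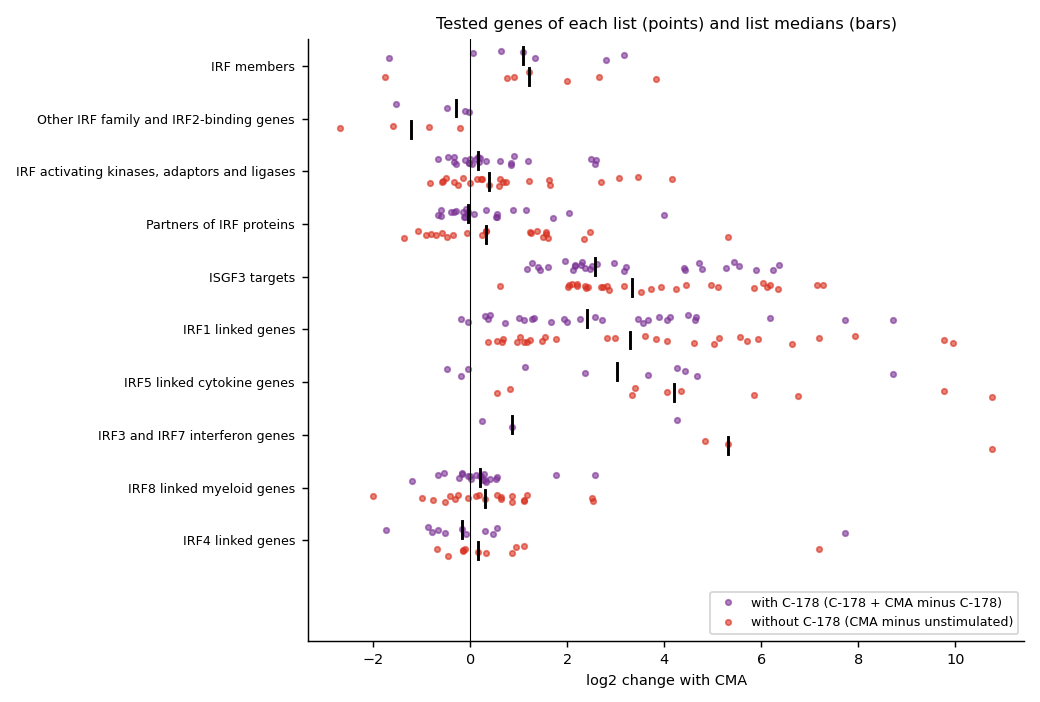
Log2 change with CMA of each tested gene (points) and the list median (bars) for the interferon regulatory factor genes and 9 lists of related genes, with C-178 (C-178 plus CMA minus C-178, above) and without it (CMA minus unstimulated, below). The ISGF3 targets lie wholly above 0 in both, with medians of 2.56 and 3.34.

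Several members share sequence with other annotated genes, and the strand setting of the counting is not known here. Irf8 lies wholly within Gm20388 on the same strand (20337 bases), and Irf1 overlaps Gm17334 over 907 bases of the opposite strand. Irf2 overlaps 3 annotated RNAs of the opposite strand over 433 to 1723 bases. None of these names is among the deposited gene entries, which hold 3 of the 8 overlapping genes. How reads in the shared bases were assigned is not known here. Irf9 overlaps Rnf31 over 123 bases on the same strand, and Rnf31, a subunit of the linear ubiquitin ligase, rose 1.99-fold with CMA. Irf5 overlaps Tnpo3 over 1045 bases of the opposite strand, and Tnpo3, a nuclear import receptor, rose 1.63-fold with CMA and was 1.34-fold lower in C-178 plus CMA than in CMA macrophages. Irf7 overlaps Phrf1 over 45 bases of the opposite strand, and Phrf1 fell 1.31-fold with CMA. Of 14 nearest protein-coding neighbours 7 were tested, and 5 were called with CMA, beside 37.3% of all tested genes. Tspan33 beside Irf5 rose 8.02-fold, Psme2 beside Irf9 rose 1.79-fold, and Exoc2 beside Irf4 rose 1.37-fold. Dusp22 beside Irf4 and Rassf7 beside Irf7 fell 3.28-fold and 3.62-fold, and Cox4i1 beside Irf8 (0.00 ± 0.22) was not called. Rassf7 stood near the floor of detection, at 11.54, 0 and 7.342 normalised counts in CMA and 25.09, 25.08 and 18.35 in unstimulated macrophages.

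All 14 macrophage markers in the table were above 100 normalised counts in every library, among them Csf1r, Cd68 and Lyz2. Their summed level was 519864 to 646055 in C-178 plus CMA, 480605 to 558076 in CMA, 482862 to 545817 in C-178 and 492715 to 514689 in unstimulated macrophages. Irf4 and Irf8 are also genes of B cells and dendritic cells, and of the B cell and plasma cell markers 2 of 9 (Cd79b and Cd22) reached 100 in every library. The summed B cell level was 696.8 to 790.0 in C-178 plus CMA, 637.5 to 733.4 in CMA, 656.5 to 719.2 in C-178 and 787.6 to 914.2 in unstimulated macrophages; Cd22 averaged 297.9 in CMA and 204.8 in unstimulated macrophages, Cd79b 345.8 in CMA and 584.3 in unstimulated macrophages, and Ms4a1, the B cell marker at 0 in CMA, 2.708 in unstimulated macrophages. Of the dendritic cell markers 1 of 11 reached 100 in every library, Bst2, which is also an ISGF3 target, and Flt3, Zbtb46 and Cd209a averaged under 10 in every group. The summed dendritic cell level was 3629.7 to 6770.4 in C-178 plus CMA, 2862 to 3114 in CMA, 1800.3 to 1880.0 in C-178 and 1921 to 2310.3 in unstimulated macrophages. Bst2 made up most of these sums, and the other 10 markers together came to 111.4 to 172.7 in C-178 plus CMA, 119.3 to 130.2 in CMA, 109.9 to 132.2 in C-178 and 139.1 to 173.8 in unstimulated macrophages. Markers of neutrophils (3 of 9), T and NK cells (1 of 9) and fibroblasts (4 of 12) also reached 100 in every library, and the summed fibroblast level was 890.8 to 2363 in C-178 plus CMA, 2017 to 3776 in CMA, 1892 to 2226 in C-178 and 1556 to 1662 in unstimulated macrophages. Of the fibroblast markers, Col1a1, Col1a2, Col3a1, Dcn, Postn, Sparc, Fn1 and Fap averaged higher in CMA than in unstimulated macrophages. Fn1 averaged 1164 in CMA and 689.3 in unstimulated macrophages, Col1a2 444.4 and 244.4, and Fap 349.4 and 2.852. Thy1, Pdgfra and Pdgfrb averaged lower in CMA than in unstimulated macrophages, and Lum was at 0 in both. The part of all these marker levels in the changes of the family was not tested.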

How the data were processed

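The values are the signal per gene in the table deposited by the authors: normalised counts for 12 libraries, 3 in each of 4 groups. The genome build mm10 and the tools limma 3.18.13 and Bowtie2 2.2.1 are named, per the submitters' processing notes. The counting tool, the annotation and its strand setting are not stated in the sources used here. The kit was a stranded TruSeq kit, per the labels' protocols. Per the file headers, 12 further columns of per-library values are Cook's distances and were not used. That each library was divided by a DESeq2 size factor is a reading of the file headers and of the values, and no source states it.

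Values in a column were multiples of a smallest step (100% within a tolerance of 0.01), and the multiples were taken as reads. The unit is signal and not counts, so limma 3.58.1 under R 4.3.3 was the main test, on log2(value + 1) of the 11440 genes with 3 or more libraries over 10 normalised counts, with all 12 libraries in a single fit, a mean-variance trend and Benjamini-Hochberg adjustment within each comparison. A log2 change on this scale understates the change of low genes, such as Irf4. edgeR 4.0.16 and DESeq2 1.42.0 were run on the recovered reads as alternatives, beside other pseudocounts, filters, scalings, thinned reads, fits of the compared groups alone, a replicate block and leaving out each library. The statistical scripts were tested on simulated data. Tables were read with pandas 2.3.3 and numpy 2.4.6, and figures drawn with matplotlib 3.10.9, under Python 3.11.15.

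The members and gene lists were chosen with earlier results of these data known. Named genes were all members, up to 4 tested genes of each list with the smallest p for CMA against no stimulation, Irf3, the nearest protein-coding neighbours and the 3 genes most correlated with each member; some genes that this rule names are not reported here. The overlapping genes were added after the annotation was read, and the marker genes named were picked after their values were seen. Coordinates and lengths came from GENCODE M21 and promoters from RefSeq; protein sequences were not used here.

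Because 2 unstimulated columns carry the same heading, those libraries bear the names 1, a and b. As a check of pairing, residuals were correlated between same-numbered libraries of the C-178 plus CMA and C-178 groups. The correlations were 0.45, 0.43 and 0.26, all over the limit of 0.1. A replicate block by library number was fitted as an alternative only, and the main test had no block and took these groups as unpaired. Libraries with different numbers were not correlated for comparison. The first library was the deepest in both groups (36.44 M reads with C-178 plus CMA, 28.48 M with C-178). Pairing and shared depth thus cannot be told apart here. No sample was dropped. Replicates of every group differed by more than counting noise (chi-square per gene 2.46 to 113.05). Between C-178 plus CMA libraries the value was 68.29 to 113.05, and within the other groups it was 2.46 to 26.32.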

Additional observations from a re-analysis of the deposited data

Results flagged for a closer look

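The change of Irf8 with CMA differed between macrophages with and without C-178 by a test of the difference itself. With C-178 the change was 0.06 on the log2 scale and without it 0.89, a difference of -0.83 ± 0.23 (limma, adjusted p = 0.0388). The adjusted p (limma, edgeR or DESeq2) ranged from 0.00325 to 0.108 over 21 alternatives. It was under 0.05 in 10 of them, and the call was lost in the other 11.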

How the results depend on the processing

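Of 786 changes of single members under alternatives, 749 kept their direction and side of the threshold, 13 lost their call, 4 gained one and 20 turned sign, all 20 without a call. The count of members called in C-178 plus CMA against CMA was 1 with only those groups fitted, and in the interaction 0 without a filter and 0 with quantile normalisation. Leaving out single libraries gave 7 with CMA, 0 with C-178, 2 to 3 in C-178 plus CMA against CMA, 6 against C-178 and 0 to 3 in the interaction; only without the third C-178 plus CMA or the first CMA library did the interaction keep its single call.

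The count over all genes for C-178 against no stimulation (11) was 18 with quantile normalisation, 38 with DESeq2, 31 with only those groups and 4 to 29 leaving out a library. For C-178 plus CMA against CMA (2760) it was 854 with only those groups, 1031 with a replicate block on them, and 1344 to 4711 leaving out a library, the extremes without the second CMA and the second C-178 plus CMA library. Against C-178 (2988) it was 1338 with only those groups and 1941 to 4181 leaving out a library, the lowest without the second C-178 library; for CMA (4271) it was 3315 to 5152. For the interaction (1137) it was 1760 with DESeq2 and 343 to 3699 leaving out a library, again without the second CMA and the second C-178 plus CMA library. The cause was not tested.

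Sign turned with quantile normalisation for Irf5 (0.0018) and Irf7 (0.24) in C-178 plus CMA against CMA, for Irf8 against C-178 (-0.07), and for Irf5 (0.11) and Irf9 (0.04) in the interaction. It also turned for Irf7 with edgeR (0.04) and DESeq2 (0.02) against CMA, and for Irf4 with thinned reads in the interaction (-0.00048). Leaving out a library gave ranges across 0 for Irf2 with C-178 (-0.07 to 0.26), for Irf4 (-0.50 to 0.23) and Irf7 (-0.29 to 0.12) against CMA, for Irf8 against C-178 (-0.10 to 0.25), and for Irf4 (-0.22 to 0.51) and Irf7 (-0.11 to 0.30) in the interaction.

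With library number as a replicate block, the counts of members stayed at 2 against CMA and 6 against C-178, and no member call changed; the fits with the compared groups alone were added after seeing the data. The same-numbered CMA and C-178 plus CMA libraries were not all correlated over 0.1 (-0.14, 0.18 and -0.16), and no block was possible with unstimulated libraries. Irf4 was not tested above 50 normalised counts: its few reads limit what depth can show.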
